A study of Mus musculus with 6 samples.

Results

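Axon guidance ligands and receptors were examined in the brains of adult mice with and without the Bahd1 gene. The group was chosen by gene name and took in the semaphorins (Sema3 to Sema7), neuropilins (Nrp), plexins (Plxn), ephrins (Efn), Eph receptors, Slits, Robos, netrins (Ntn), the Unc5 receptors and Dcc. It held 68 of the 53801 genes in the count table, and all 68 were among the 23975 genes tested. They were sorted into 12 families, with 34 ligands and 34 receptors. RNA-seq was performed on polyadenylated RNA from a single brain hemisphere of each of 3 mice with both copies of Bahd1 intact (Bahd1+/+, called Bahd1-WT) and 3 mice homozygous for a null allele (Bahd1-/-, called Bahd1-KO). All 6 mice were C57BL/6, about 70 weeks old by the sample labels, and received no drug or other treatment that the labels name. BAHD1 is a protein of repressive chromatin that works with histone deacetylases, and the comparison addressed which genes are expressed at another level in the brain when it is missing. The null allele was inherited and not limited to a cell type, so that the mice lacked Bahd1 in every tissue and through development, and the hemisphere mixed all brain regions and cell types.

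Axon guidance molecules are cues and receptors that steer growing axons, as attractants or repellents, and many stay on in the adult brain, where they act on synapses, spines, vessels and myelinating cells. Secreted class 3 semaphorins bind neuropilins, which signal through A-type plexins, while most transmembrane semaphorins bind plexins directly. Ephrin-A ligands are tethered to the membrane by a lipid anchor and mainly bind EphA receptors, and ephrin-B ligands span the membrane and mainly bind EphB receptors, although EphA4 also binds ephrin-B ligands. Slits repel axons through Robos, and netrin-1 attracts axons through DCC and repels them through UNC5 receptors.

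A pair of receptors from each of 2 families is shown first as sequence, because in 10 of the 11 families with members above and below 0, every member above 0 had a higher share of G and C in its longest transcript than every member below 0. The exception was the neuropilins, where Nrp1 with 41.9% GC was at 0.04 and Nrp2 with 51.1% at -0.11. Each run is the middle 120 bases of the longest coding exon, read 5′ to 3′ in the direction of transcription from the GENCODE M21 transcript with the longest coding sequence (GRCm38), with G and C in capitals. Unc5a (chr13:54999714-54999833, plus strand, exon 9 of 16) and Epha8 (chr4:136945924-136946043, minus strand, exon 3 of 17) had higher mean levels in Bahd1-KO, and Unc5c (chr3:141789842-141789961, plus strand, exon 10 of 17) and Epha7 (chr4:28821274-28821393, plus strand, exon 3 of 17) had lower ones.
Unc5a: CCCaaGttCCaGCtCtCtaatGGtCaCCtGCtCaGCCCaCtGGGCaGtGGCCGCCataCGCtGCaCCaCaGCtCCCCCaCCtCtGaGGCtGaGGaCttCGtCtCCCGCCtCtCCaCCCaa
Unc5c: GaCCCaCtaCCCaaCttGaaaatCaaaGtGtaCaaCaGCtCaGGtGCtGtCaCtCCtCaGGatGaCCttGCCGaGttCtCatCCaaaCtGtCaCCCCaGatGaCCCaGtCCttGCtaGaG
Epha8: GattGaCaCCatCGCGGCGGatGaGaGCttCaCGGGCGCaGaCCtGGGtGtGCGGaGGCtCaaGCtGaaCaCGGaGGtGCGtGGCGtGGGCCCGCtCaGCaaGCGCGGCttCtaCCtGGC
Epha7: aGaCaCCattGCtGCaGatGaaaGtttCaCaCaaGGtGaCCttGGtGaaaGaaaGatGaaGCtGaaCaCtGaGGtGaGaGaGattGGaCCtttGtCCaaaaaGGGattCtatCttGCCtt
G and C made up 76 of the 120 bases in Unc5a and 61 in Unc5c, and these runs were not aligned to each other. In Epha8 they made up 80 bases and in Epha7 52. The Epha8 and Epha7 runs could be laid side by side without gaps over 117 bases, of which 77 were identical. At 28 of the 40 positions that differed Epha8 had G or C where Epha7 had A or T, at 0 positions the reverse held, and at the other 12 both had a base of the same kind. The pairs were picked with their fold changes known, and Unc5a had the highest of the whole set. Runs of other members did not always follow their side of 0. The run of Plxnc1, below 0, had 70.8% G and C, and that of Ephb1, above 0, had 49.2%.

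The libraries held 42297150 to 93557948 counts. The targeted gene was read 1383, 844 and 1099 times in the Bahd1-WT libraries and 0, 14 and 1 times in the Bahd1-KO libraries (replicates 1 to 3), which matched the labels of all 6 libraries. Levels are given as CPM (counts scaled to the TMM-normalized library size), and always for replicates 1, 2 and 3 in that order. Levels compared between genes are given as RPKM, which also divides by the exon length in kilobases. Bahd1-KO replicate 2 stood apart from the other libraries. Over the 41 members with at least 53% GC in their longest transcript its median log2 difference from the mean of Bahd1-WT was 1.56, against 0.36 in Bahd1-KO replicate 1 and 1.13 in replicate 3, and over the other 27 members the medians were -0.64, -0.09 and -0.19. In a second fit, called the offset fit, each library also had an offset for the GC content and length of genes, and the families are given first without it. Because RNA came from a mixed tissue, fewer cells of a type and less RNA per cell cannot be told apart. Mice were separate animals, and with 3 against 3 an exact permutation test of a single gene cannot give a two-sided p under 0.1.

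None of the 68 members passed the test. With edgeR's quasi-likelihood test, 0 members had an adjusted p under 0.05, against 2 of all genes tested (0.00834%), and the lowest adjusted p of a member was 0.0634. At an unadjusted p under 0.05, 36 members were higher in Bahd1-KO, where 19.9% of all genes were, and 3 were lower, where 12% of all genes were. At an adjusted p under 0.1 there were 30 members by edgeR, all of them higher in Bahd1-KO. Of all 23975 genes, 3527 were higher and 1143 lower at that level, or 19.5% in either direction. The 3 Bahd1-KO libraries all lay above the 3 Bahd1-WT libraries for 29 members, beside 20.6% of all genes, and all below them for 7 members, beside 19.3% of all genes. The log2 fold change was above 0 for 45 members and below 0 for 23, beside 11172 and 12803 of all genes tested. Its median was 0.82, or 1.77-fold, beside -0.06 over all genes tested, and it ran from -0.52 for Unc5d to 3.11 for Unc5a. A difference of at least 2-fold was seen for 25 members higher in Bahd1-KO, beside 14.5% of all genes, and 0 lower, beside 7.19%. The Wald test of DESeq2, the tool of the study, with its normal prior gave another count from the same table. It called 33 members at an adjusted p under 0.05, all higher in Bahd1-KO, beside 14.3% of all genes called higher, and 0 lower, beside 2.85% of all genes. Of these 33, 22 also differed at least 2-fold by that fit, beside 9.61% of all genes called higher at that size.

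**Figure D1:**
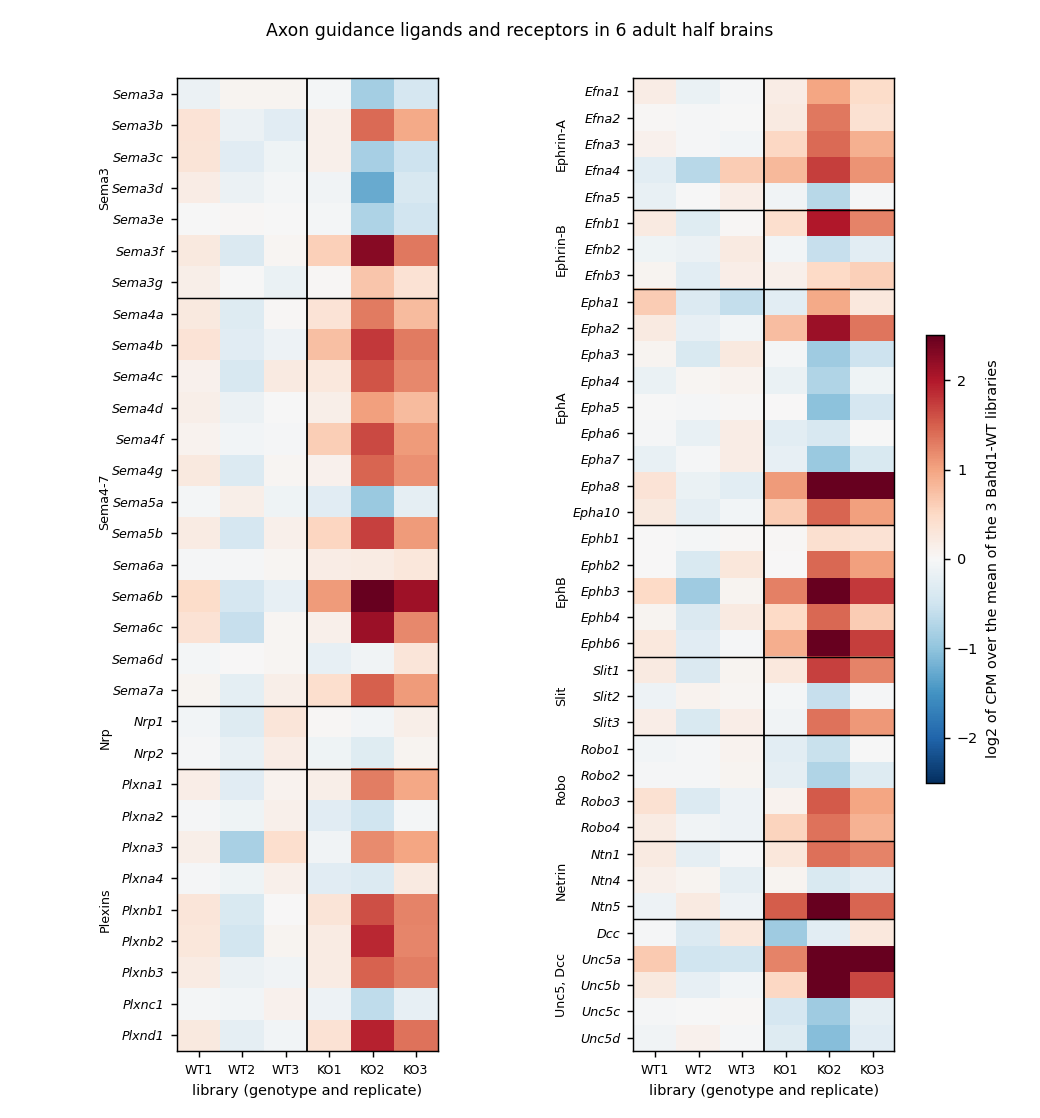
Heat map of the 68 axon guidance members (rows, by family) in the 6 libraries (columns), coloured by log2 of the CPM over the mean of the 3 Bahd1-WT libraries, with the scale ending at 2.5 in either direction. Red rows and blue rows occur side by side within most families, and among the Bahd1-KO libraries both colours are in most rows strongest in replicate 2 and weakest in replicate 1.

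The secreted class 3 semaphorins were divided, with 3 of 7 above 0, and 6 of the 7 changed sign in the offset fit. Sema3f, a repellent that acts through neuropilin-2, was measured at 3.53, 2.30 and 3.08 CPM in Bahd1-WT and 4.46, 14.4 and 7.38 CPM in Bahd1-KO, with a log2 fold change of 1.56 ± 0.41 (SE) and an edgeR adjusted p of 0.0642. All 3 Bahd1-KO libraries lay above Bahd1-WT, and Bahd1-KO replicate 2 was the highest. Sema3d, the member with the lowest fold change of the family, was at 21.9, 17.3 and 18.6 CPM in Bahd1-WT and 18.1, 8.01 and 14.5 CPM in Bahd1-KO (-0.51 ± 0.29), and Bahd1-KO replicate 1 lay within the Bahd1-WT range. Sema3c had the highest level per length of the family, at 6.70 ± 1.46 RPKM (SD, n = 3) in Bahd1-WT, and its 59.5, 39.3 and 44.7 CPM in Bahd1-WT overlapped with 52.04, 26.9 and 33.5 CPM in Bahd1-KO (-0.35 ± 0.27). Sema3a and Sema3e, repellents of many growing axons, also had log2 fold changes below 0, at -0.40 and -0.41, whereas Sema3b and Sema3g were at 0.93 and 0.39. Of the 7 members, 2 were higher and 0 lower at an unadjusted p under 0.05, and edgeR adjusted p-values ran from 0.0642 to 0.377.

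Of the 13 transmembrane and membrane-anchored semaphorins, 12 had a log2 fold change above 0, of which 7 were above 0 in the offset fit as well, and 10 were higher at an unadjusted p under 0.05. Sema6b, a transmembrane semaphorin that acts through A-type plexins, was at 9.40, 5.12 and 5.92 CPM in Bahd1-WT and 14.2, 85.9 and 29.7 CPM in Bahd1-KO, a log2 fold change of 2.67 ± 0.60 or 6.35-fold (edgeR adjusted p = 0.0634). The 3 Bahd1-KO values did not overlap with Bahd1-WT and differed widely among themselves. Sema7a, which is held in the membrane by a lipid anchor, was the most abundant semaphorin per length, with 16.6 ± 2.27 RPKM in Bahd1-WT and 34.6 ± 12.3 RPKM in Bahd1-KO (SD, n = 3). Its levels of 57.5, 46.3 and 60.5 CPM and 73.2, 155 and 115 CPM did not overlap (1.06 ± 0.26, edgeR adjusted p = 0.0634). Sema5a was the 1 member with a value below 0. It was at 85.98, 98.5 and 82.5 CPM in Bahd1-WT and 73.1, 46.8 and 76.5 CPM in Bahd1-KO (-0.44 ± 0.21, edgeR adjusted p = 0.177), with every Bahd1-KO library under every Bahd1-WT library. With the offset Sema5a was at -0.14 and Sema7a at -0.04, and the genotypes overlapped for both. The 5 Sema4 members other than Sema4d had log2 fold changes of 0.86 for Sema4a, 1.33 for Sema4b, 1.11 for Sema4c, 1.18 for Sema4f and 1.01 for Sema4g. Sema4d, the ligand of plexin-B1, was at 0.70. Sema6a and Sema6d, which are structural relatives of Sema6b, were at 0.22 and 0.02, and Sema6c, the other relative, at 1.38.

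The neuropilins, which bind class 3 semaphorins and VEGF, lay near 0. Nrp1 was at 16.7, 14.1 and 21.7 CPM in Bahd1-WT and 17.95, 16.7 and 19.4 CPM in Bahd1-KO (0.04 ± 0.21). Nrp2 was at 45.4, 40.5 and 52.6 CPM in Bahd1-WT and 43.1, 37.2 and 48.4 CPM in Bahd1-KO (-0.11 ± 0.18). The genotypes overlapped for both genes, and the edgeR adjusted p-values were 0.908 and 0.699. In the offset fit Nrp1 was at 0.53 ± 0.19 and Nrp2 at -0.22 ± 0.14.

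Plexins, the signalling receptors of the semaphorins, went both ways, with 6 of 9 above 0, or 4 of 9 in the offset fit. All B-type plexins and plexin-D1 had a higher mean level in Bahd1-KO, where Plxnd1 turned below 0 in the offset fit, with log2 fold changes of 1.15 for Plxnb1, 1.26 for Plxnb2, 1.08 for Plxnb3 and 1.35 for Plxnd1. Plxnd1, known for its part in vessel patterning, was at 21.5, 15.6 and 17.4 CPM in Bahd1-WT and 23.4, 68.7 and 46.97 CPM in Bahd1-KO (1.35 ± 0.35, edgeR adjusted p = 0.0641), with Bahd1-KO replicate 1 only just above the Bahd1-WT libraries. The A-type plexins, partners of the neuropilins, went both ways, with 0.87 for Plxna1 and 0.79 for Plxna3 but -0.27 for Plxna2 and -0.11 for Plxna4. Plxnc1, a receptor of Sema7a, had the highest level per length among plexins, at 9.62 ± 0.697 RPKM in Bahd1-WT (SD, n = 3). Its values were 77.2, 76.7 and 87.02 CPM in Bahd1-WT and 73.5, 51.4 and 70.1 CPM in Bahd1-KO (-0.31 ± 0.18), below Bahd1-WT in all 3 Bahd1-KO libraries, with an edgeR adjusted p of 0.256. Sema7a and this receptor lay on opposite sides of 0, and both below it in the offset fit (-0.04 and -0.28), where their genotypes overlapped. Plxnd1 was at -0.11 there, also with overlap. Of the 9 plexins, 5 were higher and 0 lower at an unadjusted p under 0.05.

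Among the ephrin-A ligands, Efna3 had the highest level per length and was at 18.7, 17.02 and 16.6 CPM in Bahd1-WT and 25.1, 46.3 and 32.1 CPM in Bahd1-KO (0.98 ± 0.24, edgeR adjusted p = 0.0634). All 3 Bahd1-KO libraries were above Bahd1-WT. Efna5, a repellent in topographic maps, had the lowest fold change of the family, at 19.9, 22.4 and 25.4 CPM in Bahd1-WT and 21.2, 14.01 and 22.04 CPM in Bahd1-KO (-0.24 ± 0.22), with overlapping genotypes. Efna1 and Efna2 were at 0.59 and 0.73. In the offset fit 3 of the 5 ephrin-A ligands changed sign, with Efna1 at -0.07, Efna2 at -0.53 and Efna5 at 0.04, and Efna3 was at 0.07 with overlapping genotypes. Efna4 was the member with the lowest level in the whole set, under 1 CPM in all 6 libraries. In the ephrin-B family, Efnb3, a ligand and barrier molecule at the midline and on myelin, was the most abundant of all 68 members per length, with 26.6 ± 3.92 RPKM in Bahd1-WT and 35.6 ± 5.85 RPKM in Bahd1-KO (SD, n = 3). Its 88.8, 70.7 and 94.7 CPM in Bahd1-WT overlapped with 92.4, 119 and 128 CPM in Bahd1-KO (0.42 ± 0.19, edgeR adjusted p = 0.159). Efnb1 was at 4.22, 2.90 and 3.64 CPM in Bahd1-WT and 4.83, 14.3 and 8.43 CPM in Bahd1-KO (1.36 ± 0.37), with no overlap. Efnb2, a ligand of arterial vessels and neurons, was at 55.8, 54.8 and 70.7 CPM in Bahd1-WT and 57.8, 40.6 and 50.7 CPM in Bahd1-KO (-0.28 ± 0.19), and the genotypes overlapped. In the offset fit Efnb1 was at 0.14, Efnb2 at -0.36 and Efnb3 at -0.58.

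The EphA receptors were divided, with 4 of 9 above 0, or 3 of 9 in the offset fit. Epha8, an EphA receptor of low level in Bahd1-WT, was at 2.59, 1.81 and 1.70 CPM in Bahd1-WT and 4.25, 28.2 and 13.3 CPM in Bahd1-KO, a log2 fold change of 2.91 ± 0.59 or 7.49-fold (edgeR adjusted p = 0.0634). No Bahd1-KO value reached down to Bahd1-WT, and replicate 2 was the highest by a wide margin. Epha7, a repulsive receptor of cortical axons, had the lowest fold change of the family, at 69.7, 77.5 and 90.4 CPM in Bahd1-WT and 69.1, 41.6 and 61.2 CPM in Bahd1-KO (-0.47 ± 0.21, edgeR adjusted p = 0.168). Here the highest Bahd1-KO library lay just below the lowest Bahd1-WT library. Epha4, the leading EphA receptor of the tissue at 18.7 ± 1.73 RPKM in Bahd1-WT (SD, n = 3), was at 135, 157 and 161 CPM in Bahd1-WT and 135, 89.6 and 140.3 CPM in Bahd1-KO (-0.31 ± 0.20), with Bahd1-KO replicate 2 under all the others. Epha3, Epha5 and Epha6 were at -0.45, -0.42 and -0.22, while Epha1, Epha2 and Epha10 were at 0.42, 1.54 and 1.08. Epha1 (SE 0.44) stayed under 1 CPM in all 6 libraries, and Epha2 (SE 0.37) was at 0.421 to 0.568 CPM in Bahd1-WT. EphB receptors were all on one side, with 5 of 5 above 0, or 3 of 5 in the offset fit, and 4 of 5 at an unadjusted p under 0.05. Ephb3 was at 2.71, 1.04 and 2.03 CPM in Bahd1-WT and 4.62, 11.6 and 6.58 CPM in Bahd1-KO (1.98 ± 0.43, edgeR adjusted p = 0.0634). Ephb1, the leading EphB receptor per length, was at 41.5, 39.7 and 41.6 CPM in Bahd1-WT and 41.5, 53.9 and 52.5 CPM in Bahd1-KO (0.27 ± 0.16). Ephb3 had no overlap between genotypes, whereas for Ephb1 the lowest Bahd1-KO library fell within the range of Bahd1-WT. Ephb6, which lacks kinase activity, was at 1.93, and Ephb2 and Ephb4, the receptors of synapses and of veins, were at 0.94 and 0.93.

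Slits and Robos were also divided between close relatives, with 4 of 7 above 0, and all 3 Slits changed sign in the offset fit. Slit1, the leading Slit per length, was at 15.4, 10.1 and 13.8 CPM in Bahd1-WT and 15.7, 42.8 and 31.1 CPM in Bahd1-KO (1.19 ± 0.34, edgeR adjusted p = 0.0697). Slit2 was at 30.2, 35.01 and 34.2 CPM in Bahd1-WT and 32.1, 22.1 and 32.4 CPM in Bahd1-KO (-0.20 ± 0.20). Slit1 libraries of Bahd1-KO lay above Bahd1-WT, narrowly so in replicate 1, and the Slit2 genotypes overlapped. Slit3 was at 0.91. With the offset the values were -0.07 for Slit1, 0.17 for Slit2 and -0.10 for Slit3, and the genotypes overlapped for all 3 genes. Robo2, the Slit receptor with the highest level per length, was at 146, 146 and 156 CPM in Bahd1-WT and 127, 88.97 and 120.2 CPM in Bahd1-KO (-0.42 ± 0.17, edgeR adjusted p = 0.14). Every Bahd1-KO library was below every Bahd1-WT library, and Robo2 was 1 of the 3 members lower at an unadjusted p under 0.05. Robo3, the divergent Robo of commissural axons, was at 3.23, 1.98 and 2.28 CPM in Bahd1-WT and 2.64, 7.22 and 4.96 CPM in Bahd1-KO (0.99 ± 0.37), with overlap. Robo1, close in function to Robo2, was at -0.26, and Robo4, the endothelial Robo, at 0.96. With the offset Robo2 turned to 0.08 and Robo3 to -0.13, and Robo1 was at -0.20, all with overlap. Robo4 was then at 0.25 without overlap.

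Netrins and their receptors held the widest difference of the whole set. Unc5a, a netrin receptor that mediates repulsion, was at 8.92, 4.03 and 4.16 CPM in Bahd1-WT and 13.5, 98.2 and 35.8 CPM in Bahd1-KO, a log2 fold change of 3.11 ± 0.67 or 8.61-fold (edgeR adjusted p = 0.0634). The genotypes did not overlap, and the 3 Bahd1-KO libraries differed from each other more than the lowest of them did from Bahd1-WT. Unc5d, a receptor of the same family that also binds FLRT proteins, was at 56.5, 64.9 and 59.1 CPM in Bahd1-WT and 47.9, 28.6 and 49.2 CPM in Bahd1-KO (-0.52 ± 0.22, edgeR adjusted p = 0.147), below Bahd1-WT in all 3 libraries. Unc5b and Unc5c were at 1.77 and -0.49, and Dcc, the attractive netrin receptor, at -0.21. Once the offset was added, Unc5d was at -0.20 ± 0.12 and Unc5c at -0.09, both with overlapping genotypes, Dcc turned to 0.18, and Unc5b was at 0.45 without overlap. The ratio of Unc5a to Unc5c, taken on the RPKM scale within a library, was 0.590, 0.265 and 0.265 in Bahd1-WT and 1.18, 11.8 and 2.74 in Bahd1-KO. On the levels after the offset it was 0.934, 0.639 and 0.525 in Bahd1-WT and 1.17, 2.47 and 1.76 in Bahd1-KO. Among the ligands, Ntn1 was at 1.04. Ntn5 was at 0.404, 0.518 and 0.409 CPM in Bahd1-WT and 1.26, 5.09 and 1.21 CPM in Bahd1-KO (2.52 ± 0.57), all 3 above Bahd1-WT. Ntn4, a netrin of basement membranes and the leading netrin per length, was at 23.02, 21.99 and 18.01 CPM in Bahd1-WT and 21.97, 16.1 and 17.4 CPM in Bahd1-KO (-0.19 ± 0.20), with overlap. In the offset fit Ntn1 turned to -0.06 and Ntn4 was at -0.35, and Ntn5 was at 0.62 with the genotypes overlapping.

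**Figure D2:**
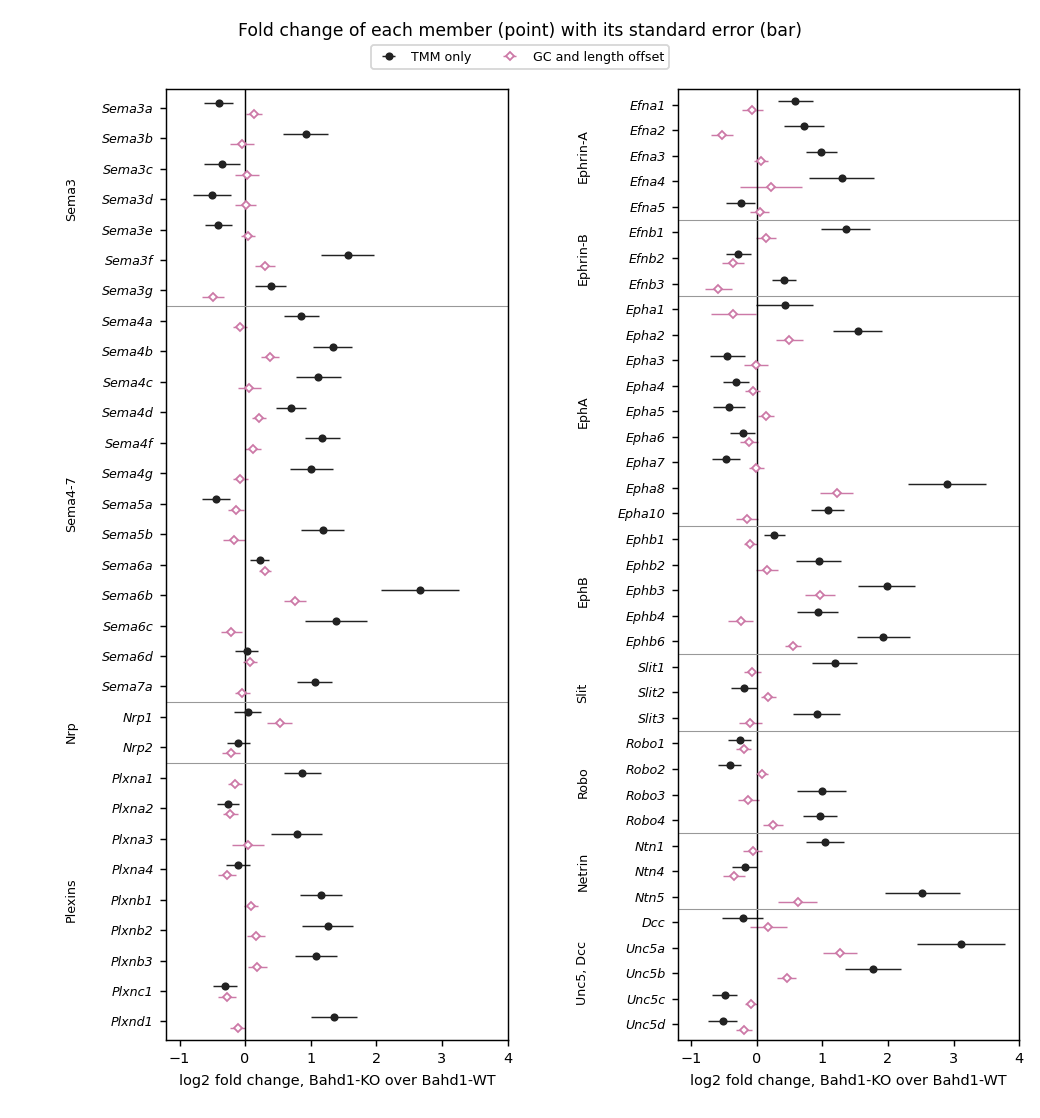
Log2 fold change of each member, Bahd1-KO over Bahd1-WT (points, with bars of 1 SE from the edgeR fit of 3 against 3 libraries), with TMM normalization only (filled circles) and with the GC and length offset (open diamonds). With TMM only the values run from -0.52 for Unc5d to 3.11 for Unc5a, and with the offset from -0.58 for Efnb3 to 1.27 for Unc5a.

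Levels per length were also summed over each family. The 13 transmembrane and anchored semaphorins summed to 49.3 ± 4.07 RPKM in Bahd1-WT and 89.4 ± 30.9 RPKM in Bahd1-KO (SD, n = 3), and the EphB receptors to 10.02 ± 0.946 and 20.3 ± 7.94 RPKM. Sums for the class 3 semaphorins were 19.1 ± 1.75 and 16.9 ± 2.41 RPKM, for the EphA receptors 41.1 ± 2.86 and 37.1 ± 3.65 RPKM, and for the Robos 13.3 ± 0.468 and 11.3 ± 1.14 RPKM. In these last families the abundant members were the ones below 0. After the offset the transmembrane and anchored semaphorins summed to 61.5 ± 2.95 RPKM in Bahd1-WT and 64.6 ± 4.57 RPKM in Bahd1-KO, with overlap, and Sema7a, which held 33.6% of the sum in Bahd1-WT and 38.6% in Bahd1-KO before the offset, held 38.6% and 35.8%. The genotypes also overlapped after the offset for the class 3 semaphorins, the EphA receptors and the Robos. For the EphB receptors they did not, at 12.7 ± 0.469 and 14.3 ± 0.669 RPKM, nor for the ephrin-B ligands, which were lower in Bahd1-KO at 48.7 ± 5.43 and 34.2 ± 8.80 RPKM, nor for the Unc5 and Dcc family, which was higher at 13.9 ± 0.322 and 16.99 ± 2.24 RPKM. Without the offset that family summed to 13.6 ± 0.527 and 24.7 ± 12.2 RPKM. The sums of the 5 families not named here overlapped after the offset. Within the Unc5 and Dcc family the make-up differed most, since Unc5a held 15.03, 7.22 and 7.53% of the summed RPKM in Bahd1-WT and 23.7, 62.3 and 37.9% in Bahd1-KO, or 20.5, 14.3 and 12.8% and 23.9, 38.2 and 30.6% after the offset. Ephb1 held 58.6% of the EphB sum in Bahd1-WT and 37.3% in Bahd1-KO, or 52.4 and 43.2% after the offset (means of 3 libraries).

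**Figure D3:**
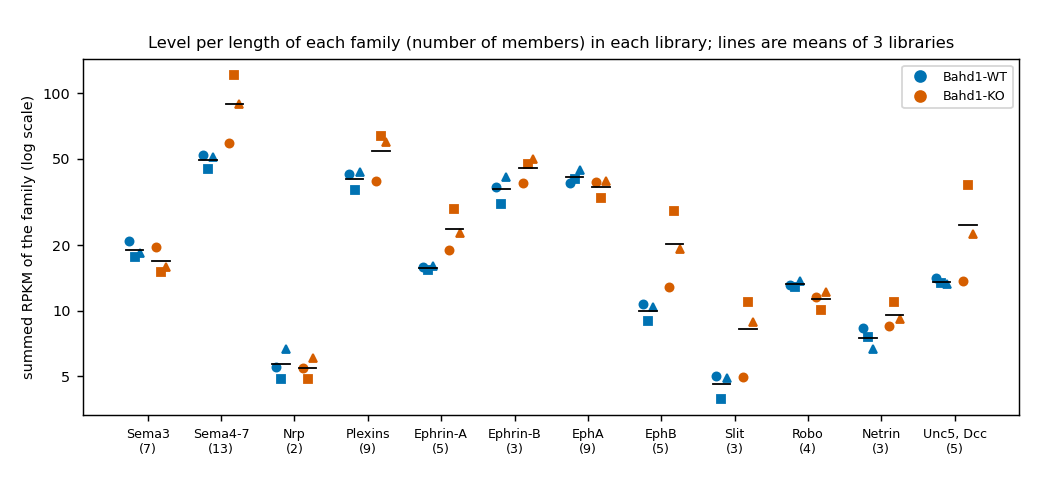
Summed RPKM of each family without the offset (log axis, number of members in brackets) in the 3 Bahd1-WT (blue) and 3 Bahd1-KO (orange) libraries, with circles, squares and triangles for replicates 1, 2 and 3 and lines at the means. The transmembrane and anchored semaphorins, ephrin-A ligands, EphB receptors and netrins of all 3 Bahd1-KO libraries sit above Bahd1-WT, and the Robo family sits below it. After the offset this held of these families for the EphB receptors only.

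Members above and below 0 differed in base composition. The log2 fold change of the 68 members had a Spearman correlation of 0.90 with the GC content of their longest transcript, beside 0.74 over the 23940 tested genes with annotation and 0.86 over the 13283 of them whose mean log2 CPM exceeded 1. These are correlations across genes measured in the same 6 libraries, and genes are not independent replicates. Of the 16 members with a GC content under 47%, 15 had a log2 fold change below 0, with a median of -0.41, beside -0.40 for all genes of that range whose mean log2 CPM exceeded 1. Between 47 and 53% GC, 8 of 11 members were below 0. All 41 members with a GC content of at least 53% were above 0. The 15 between 53 and 57% had a median of 0.93, beside 0.66 for genes of the same range, and the 19 between 57 and 60% had a median of 1.11, beside 1.21. For the 7 members of at least 60% GC the median was 2.52, beside 1.63. Along the coding sequence, the median GC content was 58.6% for members above 0 and 50% for members below 0, and at the third codon position, where many changes leave the amino acid as it is, 68.2% and 57.1%.

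**Figure D4:**
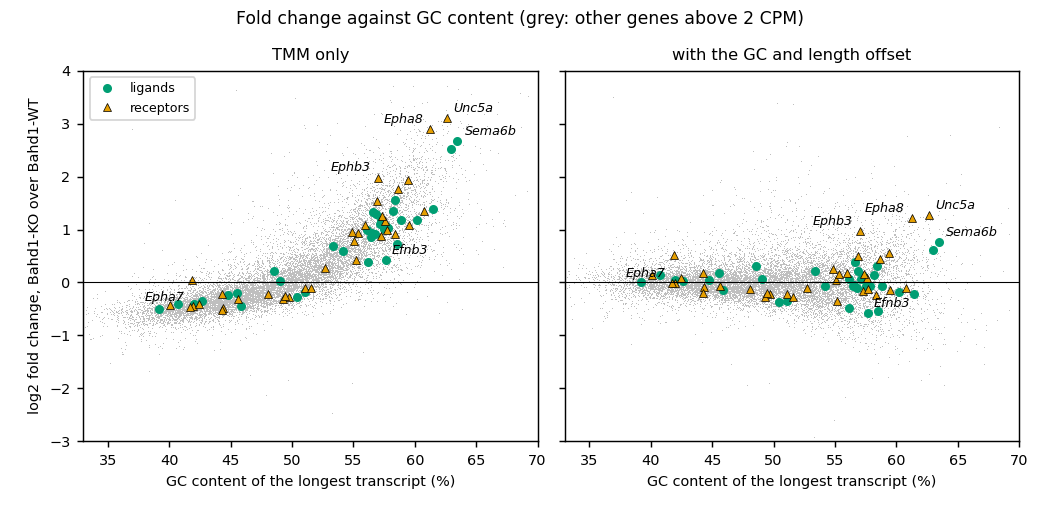
Log2 fold change (Bahd1-KO over Bahd1-WT) of the ligands (green circles) and receptors (orange triangles) against the GC content of the longest transcript in percent, over other genes above 2 CPM (grey), with TMM only (left) and with the GC and length offset (right). The members follow the band of other genes, with a Spearman correlation of 0.90 on the left and 0.10 on the right. The fall follows from the offset itself, which is fitted on GC content. Unc5a, Epha8, Ephb3 and Sema6b lie above 0 in both panels.

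Promoters did not divide the members in the same way. In the 250 bases before the start of the gene (RefSeq, GRCm38.p6), found for 58 of the 68 members, the letters CG occurred a median of 16 times, beside 6 times over 27025 genes. A count of at least 10 was found for 74.1% of these members and 38.2% of all genes. Members above 0 had a median of 15.5 and members below 0 a median of 19, and the Spearman correlation of the count with the log2 fold change was 0.04 (n = 58).

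The offset of the second fit was taken from a smooth curve through all expressed genes of that library. With the offset the median log2 fold change of the members was 0.0014, and 29 members changed sign. The Spearman correlation with GC content went from 0.90 to 0.10, and from 0.74 to 0.06 over the tested genes with annotation. Because the offset is fitted on GC content, this fall follows from how it is built. A genotype difference that follows GC content would be removed as well. With edgeR, 0 members had an adjusted p under 0.05, beside 0.0167% of all genes, and 5 had an adjusted p under 0.1, beside 5.99% of all genes. All 5 were higher in Bahd1-KO, and they were Unc5a, Epha8, Ephb3, Sema6b and Ephb6. Unadjusted p-values under 0.05 were given to 10 members higher in Bahd1-KO, where 9.89% of all genes were, and to 3 lower, where 11.4% were. All 3 Bahd1-KO libraries lay above Bahd1-WT for 12 members, beside 2798 of the 23975 genes tested. They all lay below it for 4 members, beside 3495 genes. The 5 genes and those named next were picked after their values were seen.

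After this offset Unc5a was at 12.1, 8.29 and 7.25 CPM in Bahd1-WT and 14.4, 28.8 and 23.6 CPM in Bahd1-KO (1.27 ± 0.26, edgeR adjusted p = 0.0783). Epha8 was at 3.41, 3.56 and 2.84 CPM and 4.54, 9.25 and 8.82 CPM (1.22 ± 0.25), and Ephb3 at 3.20, 1.69 and 2.85 CPM and 4.99, 5.60 and 4.69 CPM (0.97 ± 0.23). In all 3 genes the Bahd1-KO libraries stayed above Bahd1-WT, and the distance between Bahd1-KO replicate 2 and the others was smaller than before. Sema6b was at 13.02, 10.8 and 10.6 CPM and 15.05, 23.7 and 19.4 CPM (0.76 ± 0.17), and Ephb6 at 14.2, 13.8 and 14.01 CPM and 17.9, 22.03 and 21.7 CPM (0.55 ± 0.12), again with no overlap. On the other side, Efnb3 was at 109.6, 118 and 136 CPM and 92.9, 53.1 and 96.7 CPM (-0.58 ± 0.20, edgeR adjusted p = 0.141), all 3 Bahd1-KO libraries now below Bahd1-WT, whereas they overlapped without the offset. Efna2 (-0.53 ± 0.17) and Sema3g (-0.49 ± 0.17) also turned from above 0 to below 0. For Epha7 the difference was -0.01 ± 0.12 with the offset, at 59.7, 62.8 and 78.1 CPM and 69.9, 62.9 and 66.7 CPM, and for Robo2 0.08 ± 0.09, with overlapping genotypes in both. DESeq2 with the prior and the same offset called 8 members at an adjusted p under 0.05, beside 8.82% of all genes. Those higher in Bahd1-KO were Unc5a, Epha8, Ephb3, Sema6b and Ephb6, and those lower were Efnb3, Efna2 and Sema3g.

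**Figure D5:**
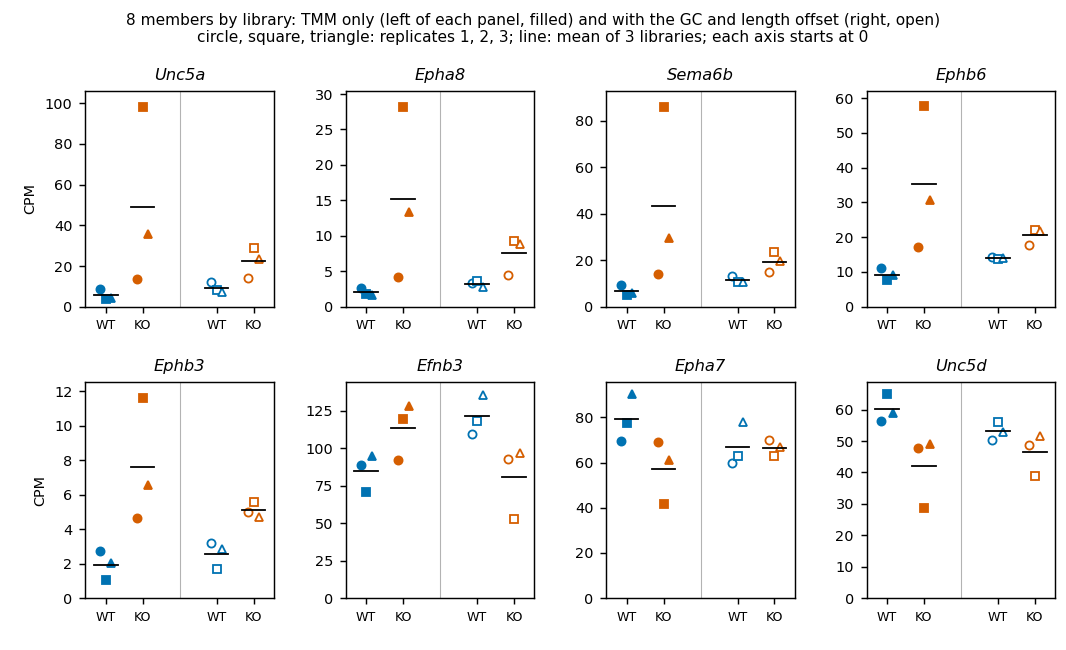
CPM of 8 members in each library, with TMM only (filled, left in each panel) and with the GC and length offset (open, right), for Bahd1-WT (blue) and Bahd1-KO (orange), with circles, squares and triangles for replicates 1, 2 and 3 and lines at the means. Unc5a reaches 98.2 CPM in Bahd1-KO replicate 2 with TMM only and 28.8 CPM with the offset, and Efnb3 lies below Bahd1-WT in all 3 Bahd1-KO libraries only with the offset.

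Results depended on single libraries. Without Bahd1-KO replicate 1, edgeR called 41 members at an adjusted p under 0.05, 38 of them higher in Bahd1-KO, beside 30% of all genes in either direction, and without any other library it called 0. Without Bahd1-KO replicate 2 the median log2 fold change of the members was 0.56, and the values were 2.12 for Unc5a, 2.12 for Epha8, 1.70 for Sema6b, 1.54 for Ephb3 and 1.48 for Ntn5 but -0.29 for Epha7 and -0.31 for Unc5d. The signs of these genes were those found with all 6 libraries, and the lowest edgeR adjusted p among them was 0.0501. With the offset and without Bahd1-KO replicate 1 there were 7 calls, which were Unc5a, Epha8, Ephb3, Sema6b, Ephb6 and Unc5b higher and Efnb2 lower. These were 7 of 68 members, beside 10.7% of all genes in the same fit.

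Other genes of the pathway were taken from lists by function. Of 29 co-receptors and relatives, 28 were tested, 0 had an edgeR adjusted p under 0.05, and 9 were higher and 3 lower at an unadjusted p under 0.05, and their log2 fold changes had a median of -0.00058. In the offset fit 2 were higher and 4 lower. Ntng2, a netrin-like membrane protein, was at 2.11 ± 0.56 and 0.52 ± 0.24 with the offset, and Rgma, a ligand of neogenin, at 1.78 ± 0.47 and 0.21 ± 0.15. The 3 lower ones were the adhesion molecule gene Chl1 (-0.62 ± 0.23) and the UNC5 ligand genes Flrt2 (-0.59 ± 0.23) and Flrt3 (-0.48 ± 0.20). With the offset they were at -0.07, -0.15 and -0.07, and the genotypes overlapped. Of 51 intracellular effectors, 0 had an edgeR adjusted p under 0.05, and 19 were higher and 4 lower at an unadjusted p under 0.05, with a median of 0.16. In the offset fit 11 were higher and 1 lower. DESeq2 with the prior called 5 higher and 0 lower of the 28 co-receptors and relatives and 16 higher and 1 lower of the effectors, beside 14.3% higher and 2.85% lower of all genes. With the offset it called 1 co-receptor or relative, lower, and 7 effectors, all higher, beside 8.82% of all genes in either direction. The 1 was Lrrc4b, which by edgeR was at 0.99 ± 0.46 without the offset and -0.86 ± 0.16 with it. At an unadjusted p under 0.05 by edgeR the shares of all genes were 19.9% higher and 12% lower, and 9.89% and 11.4% with the offset. Gipc1, a scaffold that binds neuropilin-1, was at 2.63 ± 0.58 and 0.97 ± 0.22 with the offset. Fes, a kinase of semaphorin signalling, was at 1.99 ± 0.46 and 1.01 ± 0.26, and Limk1, a kinase that acts on cofilin, at 1.36 ± 0.33 and 0.24 ± 0.11. The lower ones were the kinase genes Rock1 (-0.74 ± 0.23), Rock2 (-0.52 ± 0.20) and Pak3 (-0.67 ± 0.23) and the Ras regulator Rasa1 (-0.54 ± 0.22). With the offset these were at -0.15, -0.02, -0.11 and -0.11, and the genotypes overlapped.

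Markers of the cell types of the brain were measured in the same libraries. The 4 neuron markers summed to 5303 to 6492 CPM in Bahd1-WT and 4810 to 5921 CPM in Bahd1-KO, and 0 of 4 passed the edgeR test at an adjusted p under 0.05. Most of this sum was Snap25 and Syt1, at -0.17 and -0.37 on the log2 scale, whereas Tubb3 was at 2.06 with every Bahd1-KO library above Bahd1-WT, and Rbfox3 at 0.78 with overlap. Among oligodendrocyte markers, the log2 fold change was 1.17 for Mbp and 1.66 for Mag but -0.08 for Mog. For the 4 choroid plexus markers the sums were 272 to 368 CPM in Bahd1-WT and 452, 1074 and 608 CPM in Bahd1-KO, most of it Ttr. The log2 fold change was 1.29 for Ttr and 0.66 for Folr1 but -0.40 for Kl and -0.11 for Clic6. The 6 lung epithelium markers, which are no brain genes, summed to 114, 27.1 and 2.43 CPM in Bahd1-WT and 0.552, 1.43 and 0.933 CPM in Bahd1-KO, and 0 of 6 passed at an adjusted p under 0.05 by edgeR. Sftpb among them was at 0 in Bahd1-KO replicates 1 and 3. Without Bahd1-WT replicate 1, the library with the highest sum of these, the median log2 fold change of the guidance genes was 0.93. The astrocyte markers summed to 1692 to 1887 CPM in Bahd1-WT and 1463 to 1638 CPM in Bahd1-KO, and the meningeal fibroblast markers to 72.3 to 80.2 CPM and 58.8 to 70.5 CPM. Within both lists single markers went either way. Aqp4 and Slc1a3 were at -0.47 and -0.36 but Gfap and Aldh1l1 at 0.67 and 1.035, and Dcn and Lum were at -0.42 and -0.61 but Col1a1 and Col1a2 at 0.76 and 0.17. Sums of the 6 other lists, those of microglia, endothelial cells, mural cells, cerebellar granule cells, striatal neurons and olfactory bulb, overlapped between genotypes, but single markers in them did not. Cldn5 of endothelial cells (2.56), Tmem119 of microglia (1.37), Adora2a and Ppp1r1b of striatal neurons (1.35 and 0.92) and Acta2 of mural cells (0.91) were above Bahd1-WT in all 3 Bahd1-KO libraries. P2ry12 of microglia (-0.54), Drd1 of striatal neurons (-0.54) and Neurod1 of granule cells (-0.22) were below it in all 3, and Rgs5 of mural cells was at -0.46 with overlap. With the offset Cldn5 was at 0.86 and Acta2 at 0.87, again without overlap, Tmem119 at 0.16 and Adora2a at -0.02, both with overlap, and Ppp1r1b at -0.51 and below Bahd1-WT. P2ry12 was then at -0.01 and Neurod1 at 0.15, and the genotypes overlapped for both. Ttr (1.43), Mbp (1.00), Tubb3 (0.78), Mag (0.50), Snap25 (0.42), Aldh1l1 (0.40) and Dcn (0.20) were also above Bahd1-WT in all 3 Bahd1-KO libraries with the offset. Below it in all 3 were Col1a1 (-0.47), Rbfox3 (-0.45), Clic6 (-0.42), Drd1 (-0.33), Kl (-0.29) and all 6 lung epithelium markers. Of the markers reported from the 12 lists, 0 passed the edgeR test at an adjusted p under 0.05. DESeq2 with the prior called 11 higher in Bahd1-KO, beside 14.3% of all genes, and 5 lower, beside 2.85%. The 11 were Tubb3, Aldh1l1, Mbp, Mag, Tmem119, Cldn5, Pdgfrb, Acta2, Ttr, Adora2a and Ppp1r1b, and the 5 were all lung epithelium markers. With the offset it called Tubb3, Mbp, Mag, Cldn5, Acta2, Ttr and Snap25 higher. It called Rbfox3, Clic6, Drd1 and Ppp1r1b lower and 0 of the 6 lung epithelium markers, beside 8.82% of all genes in either direction. The part of these cell types in the differences of the guidance genes was not tested.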

How the data were processed

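Bulk RNA-seq of a brain hemisphere was analysed for 3 Bahd1-WT and 3 Bahd1-KO mice, grouped by the genotype and numbered by the titles of the sample labels. The authors deposited whole-number read counts per gene for 53801 genes, without normalization. Per the labels and the methods, adapters were removed with cutadapt 1.11, reads were aligned to GRCm38 with STAR 2.5.0a, and reads on exons were counted by strand with featureCounts 1.4.6-p3. The sources disagree on the run, since the methods describe single-end reads in technical replicates and the supplement describes a paired-end run and also names Tophat2. The processing notes also list DESeq2 1.20.0 and R 3.5.1.

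Genes whose counts added up to at least 10 across the samples (23975) were tested with edgeR 4.0.16 in R 4.3.3, using TMM factors, the quasi-likelihood test with genotype only, and Benjamini-Hochberg adjustment over all of them. A call was an adjusted p under 0.05. Exon lengths and the GC content of the longest transcript came from GENCODE M21. For the offset, log2 CPM was fitted per library by natural splines of GC content (5 degrees of freedom) and log length (3), over the 13283 genes whose mean log2 CPM exceeded 1. Values by sample were given for Bahd1 and, in each of the 12 families, for the member with the highest level per length and those with the highest and lowest log2 fold change among members with a mean of at least 1 CPM, 28 genes in all. Any member called in either edgeR fit would also have been named. The members and lists were chosen with earlier results of these data known. The GC ranges were set after the data were seen.

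Alternatives were DESeq2 1.42.0 with and without its normal prior, other size factors and filters, leaving out each library, a replicate block and the offset. A count of 3, the smallest level set as detectable, was 0.0315 to 0.0690 CPM across libraries. This floor covers counting error only. The scripts were tested on simulated counts. The table held 0 columns of other samples, and embryonic brains were not analysed here. A member of the oligodendrocyte list, and the sum of that list, are not reported here.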

Additional observations from a re-analysis of the deposited data

How the results depend on the processing

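The count of 0 members at an adjusted p under 0.05 by edgeR stood under DESeq2's size factors, upper-quartile factors, edgeR's own expression filter, the replicate block and both edgeR offset fits. It was 20 with total counts (9.4% of all genes called), 28 with no filter beyond 1 count (11%), 33 with DESeq2 with or without the prior (17.1 and 17.2%), and 8 with DESeq2, the prior and the offset (8.82%). Leaving out each library gave 0 to 41, the latter without Bahd1-KO replicate 1 (30%). The 36 members higher at an unadjusted p under 0.05 became 10 with the offset (9.89% of all genes), 9 with the offset and the replicate block (7.6%), and 9 with DESeq2, the prior and the offset (9.31%), and 24 to 41 when a library was left out (13.5 to 24.7%). The 3 lower members became 6 with upper-quartile factors (18.1%), which moved the median of all genes from -0.06 to -0.20, 0 with total counts (7.42%), 5 with no filter beyond 1 count (9.68%), 1 with DESeq2 with or without the prior (9.22 and 9.19%), 0 with the replicate block (6.68%), and 0 to 11 when a library was left out (4.79 to 18.6%). The median log2 fold change of 0.82 became 0.0014 with the offset, 0.011 with the offset and the block and 0.0011 with DESeq2, the prior and the offset, and ran from 0.56 to 1.10 when a library was left out. The cause of these shifts was not tested.

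Leaving out a library in the offset fit was added after the data were seen. It gave 7 calls without Bahd1-KO replicate 1 (10.7% of all genes called) and 0 in the 5 other fits (0.00427 to 0.0427%). At an unadjusted p under 0.05, 8 to 14 members were higher, beside 6.75 to 12.3% of all genes, and 2 to 9 lower, beside 6.71 to 13.9%, the highest counts and shares again without Bahd1-KO replicate 1. The median was 0.018, -0.049 and 0.031 without Bahd1-WT replicates 1, 2 and 3 and -0.0043, 0.043 and -0.065 without Bahd1-KO replicates 1, 2 and 3.

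Of the 28 named members, 11 reversed in all 3 fits with the offset. In edgeR with the offset, the same with the block, and DESeq2 with the offset, they were Sema3c (0.030, 0.044, 0.028), Sema3d (0.010, 0.0095, 0.0093), Sema7a (-0.040, -0.042, -0.038), Plxnd1 (-0.11, -0.12, -0.11), Efna5 (0.041, 0.036, 0.039), Efnb3 (-0.58, -0.63, -0.52), Ephb1 (-0.099, -0.099, -0.096), Slit1 (-0.067, -0.071, -0.063), Slit2 (0.17, 0.17, 0.16), Robo2 (0.077, 0.079, 0.075) and Robo3 (-0.13, -0.13, -0.12). Epha7 was at 0.0012 with the offset and the block. Nrp1 was at -0.096 with upper-quartile factors, and ran from -0.097 to 0.22 when a library was left out.

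Same-numbered samples are different animals. Their deviations from the group means had correlations of -0.64, -0.66 and -0.14, and those of differently numbered samples ran from -0.09 to 0.63. Deviations within a group of 3 add up to 0 for each gene, so these correlations cannot show whether samples were paired. The block gave 0 calls and 31 members higher at an unadjusted p under 0.05. Depth limits members such as Efna4, which stayed under 1 CPM in every library.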

Other observations

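Ratios between relatives of one family were taken within single libraries, on the RPKM scale. Epha8 over Epha4 was 0.0328, 0.0198 and 0.0181 in Bahd1-WT replicates 1, 2 and 3 and 0.0538, 0.538 and 0.162 in Bahd1-KO. Sema6b over Sema6d was 0.282, 0.147 and 0.164 in Bahd1-WT and 0.468, 2.63 and 0.694 in Bahd1-KO. Slit1 over Slit2 was 2.18, 1.24 and 1.74 in Bahd1-WT and 2.105, 8.32 and 4.11 in Bahd1-KO, so Bahd1-KO replicate 1 lay inside the Bahd1-WT range. Each pair sets a gene of higher GC content over one of lower GC content. On the levels after the GC and length offset, Slit1 over Slit2 was 3.15, 2.54 and 2.97 in Bahd1-WT and 2.05, 2.49 and 2.80 in Bahd1-KO, so that the direction of the means turned and the genotypes overlapped. Epha8 over Epha4 was then 0.0471, 0.0432 and 0.0328 in Bahd1-WT and 0.0564, 0.140 and 0.105 in Bahd1-KO, and Sema6b over Sema6d 0.409, 0.306 and 0.302 and 0.464, 0.689 and 0.482. These pairs were chosen with the values of their genes known, and their differences are descriptions without a test.

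Antisense genes of Plxna4 were near the limit of detection. Plxna4os1 had 17, 8 and 9 counts in Bahd1-WT and 6, 15 and 9 in Bahd1-KO, and Plxna4os2 and Plxna4os3 had at most 2 counts in any library.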
